A study of Mus musculus with 4 samples.

Results

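The 37 genes carried by the mouse mitochondrial genome were examined in sorted regulatory T cells. Members were all gene IDs of the count table whose mouse symbol begins with mt-, 37 of 52636 IDs, and all 37 lie on chromosome M in the GRCm38 annotation. They comprise 13 mRNA genes, 2 rRNA genes and 22 tRNA genes, and the classes are described apart. RNA came from 4 libraries of cells sorted as CD4+CD62L+CD25bright from C57BL/6 mice aged 7 weeks. One group, Vav1R63WThemis1-T-/-, carries the R63W knock-in allele of the signalling adaptor Vav1 and is also labelled as lacking Themis1 in T cells, and holds replicates 2 and 3. The other, Vav1R63W, carries the same knock-in allele without that deletion, and also holds replicates 2 and 3. The labels name neither the driver of the T cell deletion nor separate animals for the replicates, so p-values measure the spread between these libraries, which may be technical.

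The mitochondrial genome is read from both strands as long transcripts, which are cut at the tRNAs that stand between the mRNAs and rRNAs. The mRNAs encode core subunits of respiratory complexes I, III and IV and of the ATP synthase, the rRNAs build the mitochondrial ribosome, and the tRNAs serve its translation. Regulatory T cells are known to rely on oxidative metabolism for part of their function. Most mitochondrial mRNAs carry short poly-A tails, as does the large rRNA, whereas tRNAs are short and end in CCA. The kit named in the labels captures poly-A RNA and does not mark strand.

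The libraries had 15953194 and 13963670 reads assigned to genes in the replicates labelled Themis1-deleted, and 14003757 and 14398002 in Vav1R63W replicates 2 and 3. Themis, the deleted gene, had 685 and 0 reads in the replicates labelled Themis1-deleted, against 283 and 97 in the Vav1R63W libraries. By its gene count, replicate 2 labelled Themis1-deleted thus goes against its label. Counts per gene cannot tell whether the deleted exons carry these reads, so its genotype is left uncertain. Every direction below is between labels. Values without replicate 2 labelled Themis1-deleted are given for the class sums and the better covered genes. Levels are given as CPM, a gene's reads per 1000000 reads assigned to genes. Foxp3, which defines this lineage, was found at 1014 and 737 CPM in the replicates labelled Themis1-deleted and at 904 and 636 CPM in the Vav1R63W libraries. The 6 monocyte and macrophage markers examined had 0 reads in all 4 libraries, and the B cell genes Ms4a1 and Pax5 also had 0. Cd79b, a chain of the B cell receptor complex, was at 35.5 and 62.7 CPM in the replicates labelled Themis1-deleted and at 58.3 and 63.6 CPM in the Vav1R63W libraries. Cd79a, the other signalling chain, had 38 and 0 reads for the Themis1-deleted label against 135 and 77 for Vav1R63W, lower without overlap (log2 -2.64 ± 2.65, edgeR adjusted p = 1.000). The 6 erythroid markers summed to 8.65 and 5.37 CPM in the replicates labelled Themis1-deleted and to 7.07 and 0 CPM in Vav1R63W, and the 4 platelet markers to 0 and 28.8 CPM against 2.07 and 0.0695 CPM, with Pf4 and Ppbp at 0. Of the erythroid markers, the globin gene Hbb-bs had 72 and 26 reads for the Themis1-deleted label against 0 and 0 for Vav1R63W (edgeR unadjusted p = 0.0201, adjusted p = 0.900), whereas Hba-a1 and Hba-a2 overlapped between groups. Among the remaining lists, 5 of the 6 dendritic cell markers had 0 reads, and Zbtb46 had 225 and 0 reads for the Themis1-deleted label against 35 and 0 for Vav1R63W. The NK cell and CD8 T cell markers each summed to between 15.5 and 38.5 CPM in every library. The part of other cells in the mitochondrial values was not tested.

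Several members have near-identical copies in the nuclear genome, which matters for what the count table can hold. STAR, the aligner named by the submitters, counts a read toward a gene only when it has a single place in the genome, and reports the others in a separate line of the file. The annotated copies were found by aligning each member to the GENCODE M21 nuclear transcripts, and the sequences below show how closely they match. The sequences are of GRCm38 and read 5′ to 3′ on the gene's strand. The first pair gives bases 1 to 90 of mt-Nd4l (chrM:9877-9966, plus strand), a complex I subunit, and of its copy Gm10222 (chr1:24612611-24612700, minus strand), an unprocessed pseudogene. They hold 0 differences here, so no base is in capitals.
mt-Nd4l: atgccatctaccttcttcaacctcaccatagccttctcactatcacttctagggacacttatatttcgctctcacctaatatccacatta
Gm10222: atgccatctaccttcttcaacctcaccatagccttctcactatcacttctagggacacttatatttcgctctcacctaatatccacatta
The next pair gives bases 1 to 61 of mt-Nd3 (chrM:9459-9519, plus strand), also of complex I, and of Gm28438 (chr1:24613059-24613119, minus strand). The capital marks their 1 difference over 345 aligned bases, T3C, counted from base 1 of mt-Nd3, with the mitochondrial base first.
mt-Nd3: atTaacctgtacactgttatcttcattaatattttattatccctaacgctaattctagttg
Gm28438: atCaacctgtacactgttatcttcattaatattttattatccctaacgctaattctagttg
By contrast, mt-Co1, the catalytic subunit of cytochrome c oxidase (chrM:5328-5447, plus strand), differed from Gm13340 (chr2:22589528-22589647, minus strand) at 3 of the first 120 bases, shown in capitals.
mt-Co1: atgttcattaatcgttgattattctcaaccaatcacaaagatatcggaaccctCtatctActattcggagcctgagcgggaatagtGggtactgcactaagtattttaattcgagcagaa
Gm13340: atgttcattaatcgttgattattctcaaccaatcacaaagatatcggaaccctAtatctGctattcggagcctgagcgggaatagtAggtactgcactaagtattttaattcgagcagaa
The copy of mt-Cytb, the complex III subunit, differed most of those shown. Bases 2 to 121 of mt-Cytb (chrM:14146-14265, plus strand) and of Gm11410 (chr4:80003990-80004109, plus strand) held 7 differences, in capitals.
mt-Cytb: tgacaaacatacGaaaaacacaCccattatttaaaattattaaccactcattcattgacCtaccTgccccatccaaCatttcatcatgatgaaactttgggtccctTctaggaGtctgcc
Gm11410: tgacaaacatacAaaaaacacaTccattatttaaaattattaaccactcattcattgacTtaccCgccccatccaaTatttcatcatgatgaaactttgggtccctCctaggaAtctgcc

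Copies with over 99% identity stood together on chromosome 1. A run of 7 annotated pseudogenes (chr1:24611535-24616197) matched the members from the end of mt-Co1 to the first part of mt-Nd4 (chrM:6390-11042, 4653 bases) in the same order. The spacing between neighbouring copies equalled the spacing between the mitochondrial genes at 5 of 6 junctions, and at the sixth, between mt-Nd3 and mt-Nd4l, it was 74 bases on chromosome 1 against 73 in the mitochondrial genome. Within this stretch lie 11 members whole, namely the mRNA genes mt-Co2, mt-Atp8, mt-Atp6, mt-Co3, mt-Nd3 and mt-Nd4l and 5 tRNA genes, and 2 members in part, mt-Co1 (483 bases) and mt-Nd4 (876 bases). The aligned identity was 100% for mt-Co2, mt-Atp6, mt-Co3, mt-Nd4l and mt-Nd4, 99.8% for mt-Co1 and 99.7% for mt-Nd3.

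Levels per length were mostly lower for mRNAs inside this stretch, with some overlap between the ranges. The 5 mRNAs outside it ran from 93.5 to 1269 CPM per kilobase over all libraries, and the 6 mRNAs wholly inside ran from 0 to 121 CPM per kilobase. The overlap comes from mt-Nd3, inside, and mt-Nd6, outside, and the other 5 mRNAs inside reached at most 11.0 CPM per kilobase. Complex IV subunits show a contrast between mt-Co1, which lies in the stretch only in part, and mt-Co2 and mt-Co3, wholly inside it. Per kilobase, mt-Co1 was at 591 and 571 CPM in the replicates labelled Themis1-deleted and at 371 and 562 CPM in the Vav1R63W libraries. Its partner mt-Co2, the copper-binding subunit, had 4 and 0 reads in the replicates labelled Themis1-deleted and 0 and 3 in Vav1R63W. The third subunit, mt-Co3, had 138 and 60 reads in the replicates labelled Themis1-deleted and 44 and 31 in Vav1R63W. Both ATP synthase subunits were low as well: mt-Atp8 had 2 and 0 reads in the replicates labelled Themis1-deleted and 2 and 0 in Vav1R63W, and mt-Atp6 had 16 and 22 against 30 and 19. No read was assigned to mt-Nd4l in any library, which allows a level of up to 0.188 and 0.215 CPM in the replicates labelled Themis1-deleted and 0.214 and 0.208 CPM in Vav1R63W at 3 reads each, for counting error only. A count of 0 here does not show that a transcript was absent. How much the copies set these counts was not tested.

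**Figure D1:**
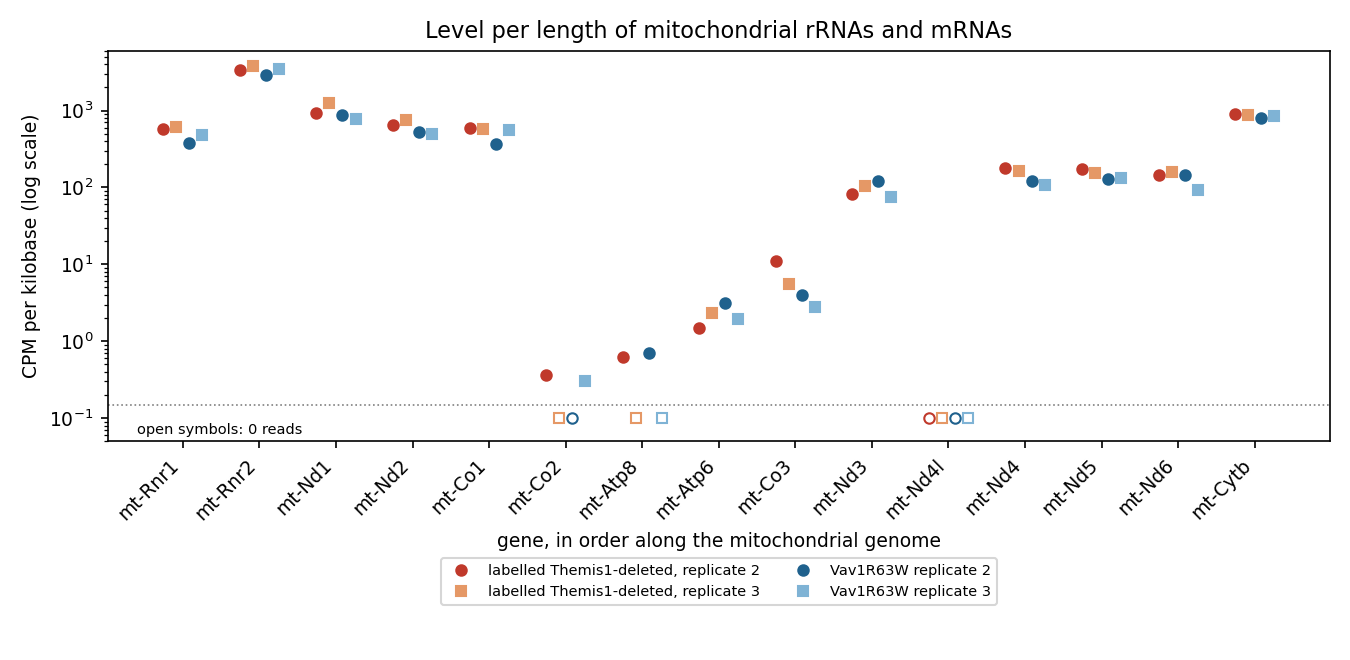
Level of the 2 mitochondrial rRNAs and 13 mRNAs in each library, as CPM per kilobase of gene on a log axis, in order along the mitochondrial genome, with the libraries labelled Themis1-deleted left of the Vav1R63W libraries. Filled points are single libraries and open points are libraries with 0 reads. The genes from mt-Co2 to mt-Nd4l sit at 0 to 121 CPM per kilobase.

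Exact sharing of short windows was measured as well. All 635 windows of 50 bases in mt-Co2 occurred exactly in an annotated nuclear transcript, as did 99.9% in mt-Co3, 99.5% in mt-Atp6, 98.8% in mt-Nd4l and 98.0% in mt-Nd3. The share was 62.2% in mt-Nd4, 51.1% in mt-Co1, 8.19% in mt-Nd2 and 7.61% in mt-Nd5. It was 0% in mt-Nd1, mt-Nd6, mt-Cytb and both rRNAs. The gene mt-Atp8 is the exception to a low level beside a high share, since 0% of its windows had a copy among annotated transcripts. Its last 43 bases match Gm10925, the copy of mt-Atp6, at 100% identity, a run shorter than the window of 50 bases. The rest of mt-Atp8 falls inside the chromosome 1 stretch, between the copies of mt-Co2 and mt-Atp6, where no copy is annotated. Genome sequence outside transcripts was not used here. Members of nearly equal share also differed in level: mt-Nd3 averaged 95.6 CPM per kilobase over the 4 libraries, against 5.82 for mt-Co3.

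**Figure D2:**
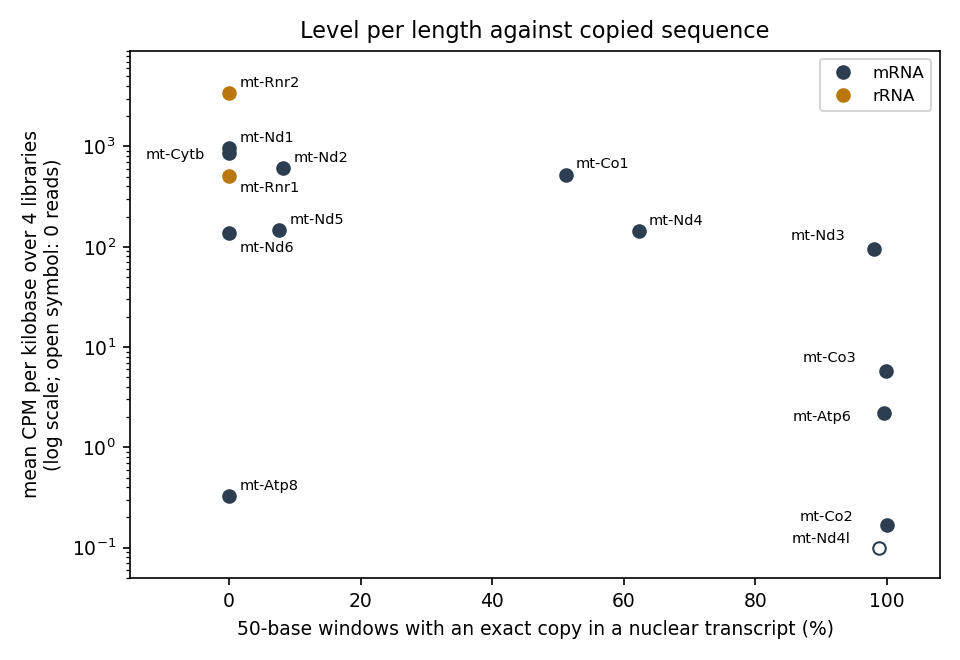
Mean level per length over 4 libraries (log axis, CPM per kilobase) against the percentage of a gene's 50-base windows with an exact copy in an annotated nuclear transcript. Each point is a gene, and the open point is mt-Nd4l with 0 reads. The genes at 98.0% or more reach at most 95.6 CPM per kilobase, and mt-Atp8 is low at 0%.

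The pseudogenes themselves received reads. Gm28437, the copy of mt-Co3, had 450 and 441 reads in the replicates labelled Themis1-deleted and 354 and 426 in Vav1R63W, more than mt-Co3 in each library. Gm10925, the copy of mt-Atp6, had 131 and 131 reads in the replicates labelled Themis1-deleted and 296 and 131 in Vav1R63W. The copy of mt-Co2, Gm28661, had 24 and 31 reads in the replicates labelled Themis1-deleted and 24 and 38 in Vav1R63W. Gm10222, the copy of mt-Nd4l, had 1 read in the library labelled Themis1-deleted, replicate 2, and 0 in the others. The 6 listed pseudogenes of this stretch summed to 38.6 and 44.8 CPM in the replicates labelled Themis1-deleted and to 49.6 and 42.7 CPM in Vav1R63W, with overlapping groups. Reads of a member and its copy cannot be told apart where the sequences match, so both are uncertain.

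Among well-covered members only broad tiers of level were stable between libraries, and genes of similar level changed places. The 16S rRNA mt-Rnr2 of the large ribosomal subunit was highest, at 3361 and 3824 CPM per kilobase in the replicates labelled Themis1-deleted and 2924 and 3501 in Vav1R63W. The 12S rRNA mt-Rnr1 of the small subunit stood at 577 and 603 CPM per kilobase in the replicates labelled Themis1-deleted and at 374 and 484 in Vav1R63W. Per length, the mt-Rnr2 to mt-Rnr1 ratio was 5.83 and 6.34 in the replicates labelled Themis1-deleted and 7.82 and 7.24 in Vav1R63W, groups that did not overlap. With 2 libraries against 2, such a separation cannot reach significance. The ratio of mRNA to rRNA reads overlapped, at 0.719 and 0.679 for the Themis1-deleted label and 0.685 and 0.599 for Vav1R63W.

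Of the mRNAs, mt-Nd1 and mt-Cytb held the first 2 ranks per length in all 4 libraries. The complex I subunit mt-Nd1 was at 936 and 1269 CPM per kilobase in the replicates labelled Themis1-deleted and 879 and 786 in Vav1R63W. For mt-Cytb the levels were 916 and 869 CPM per kilobase in the replicates labelled Themis1-deleted and 810 and 859 in Vav1R63W, so these neighbours in the order do not differ beyond their spread. Ranks 3 and 4 were held by mt-Nd2 and mt-Co1 in every library. The next ranks, 5 to 8, were shared by mt-Nd4, mt-Nd5, mt-Nd6 and mt-Nd3 in differing order, with 74.0 to 181 CPM per kilobase. Of these, mt-Nd3 and part of mt-Nd4 lie in the copied stretch, so their place is uncertain. That of mt-Nd6 is uncertain too, since without strand its reads cannot be told from plus-strand RNA.

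All 14 rRNA and mRNA genes other than mt-Nd6 lie on the plus strand of the reference, and mt-Nd6, a complex I subunit, is the sole mRNA gene on the minus strand. Per length, the mt-Nd6 to mt-Nd5 ratio was 0.836 and 1.04 in the replicates labelled Themis1-deleted and 1.13 and 0.705 in Vav1R63W. The groups overlapped. These genes meet tail to tail and share 14 bases, and the unstranded column leaves out reads that touch both. As the kit does not mark strand, summing the strand columns counts such a read once for each gene. Counted so, the ratio was 1.10 and 1.41 in the replicates labelled Themis1-deleted and 1.49 and 0.975 in Vav1R63W. By either count, reads given to mt-Nd6 cannot be told from plus-strand RNA over the same bases. The ratio thus need not compare a minus-strand mRNA with a plus-strand one.

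The ends of the mRNAs differ in a way tied to polyadenylation, and 3 are shown for that reason, with capitals on the last bases of the coding sequence. In 10 of the 13 mRNA genes the annotated sequence ended in TAA or TAG, and in mt-Co3, mt-Nd4 and mt-Cytb it ended in a lone T, which the poly-A tail is known to complete to a stop codon. The ends are chrM:11515-11544, chrM:15259-15288 and chrM:6843-6872, plus strand.
mt-Nd4: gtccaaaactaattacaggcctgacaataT
mt-Cytb: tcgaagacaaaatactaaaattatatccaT
mt-Co1: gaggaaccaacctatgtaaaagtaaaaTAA
Also shown is the end of mt-Atp8 (chrM:7880-7969, plus strand), whose last 43 bases, in capitals, are the first 43 of mt-Atp6, so that a read lying there cannot be assigned to either gene.
mt-Atp8: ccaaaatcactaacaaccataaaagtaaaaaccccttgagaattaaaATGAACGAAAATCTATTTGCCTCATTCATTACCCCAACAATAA

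The tRNA genes held few reads. Of the 22, 9 had any read in the unstranded column, and the class summed to 165 and 86 reads in the replicates labelled Themis1-deleted and 53 and 119 in Vav1R63W. Only mt-Tp and mt-Tq had over 8 reads in all. The tRNA for proline, mt-Tp, had 97 and 58 reads in the replicates labelled Themis1-deleted and 34 and 102 in Vav1R63W. The tRNA for glutamine, mt-Tq, had 52 and 24 reads in the replicates labelled Themis1-deleted and 14 and 14 in Vav1R63W. Both lie on the minus strand, as do 8 of the 22 tRNA genes.

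Counting by strand changed which tRNA genes were given reads. The unstranded column held 423 tRNA reads over the 4 libraries and the 2 strand columns summed to 1557, with 14 tRNA genes having a read. The tRNA for tyrosine, mt-Ty, had 0 reads in the unstranded column of every library. Its strand columns summed to 806 reads over the libraries, 387 in the first and 419 in the second. It lies 1 base from mt-Co1 on the other strand, and a read covering both is ambiguous where strand is not used. As the kit does not mark strand, the summed strand columns count such a read once for each gene. By the same sum mt-Co1 stood 925 reads above its unstranded count. The added counts thus need not be reads of the tRNA itself, and where they lie was not tested. In the same way mt-Tt, the tRNA for threonine, had 1 read without strand and 67 by strand, and mt-Ts1, for serine, had 0 and 60. The 3 minus-strand tRNAs with the most reads by strand are shown, with the anticodon in capitals, as DNA: mt-Tp (chrM:15356-15422), mt-Tq (chrM:3772-3842) and mt-Ty (chrM:5260-5326).
mt-Tp: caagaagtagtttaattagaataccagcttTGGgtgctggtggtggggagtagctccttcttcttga
mt-Tq: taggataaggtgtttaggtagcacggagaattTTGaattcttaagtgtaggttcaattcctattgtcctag
mt-Ty: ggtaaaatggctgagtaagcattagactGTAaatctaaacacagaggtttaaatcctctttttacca

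**Figure D3:**
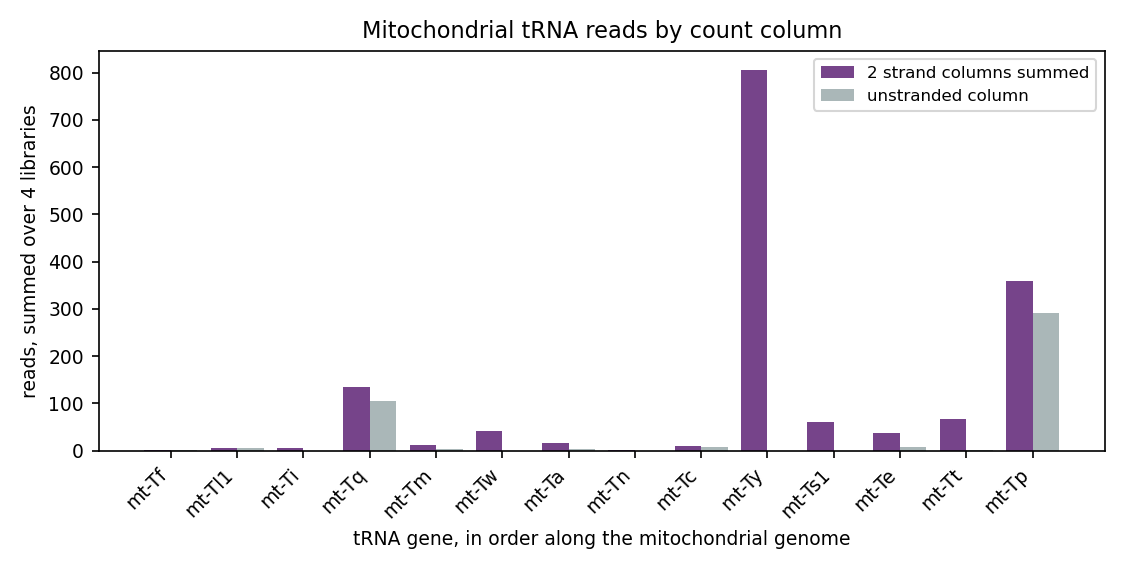
Reads summed over 4 libraries for the 14 mitochondrial tRNA genes with any read, in the 2 strand columns summed and in the unstranded column. The bars start at 0. The gene mt-Ty has 806 reads by strand and 0 without strand. A read covering genes on opposite strands counts for each gene in the summed columns.

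The strand columns were otherwise even. Over the 10 members with at least 1000 reads, the first strand column held 49.0% to 51.7% of the reads of both. For 20 members the strand columns added up to the unstranded count exactly, and for 17 they exceeded it. Of the mRNAs, mt-Nd5 and mt-Nd6 had the largest excess, with 17997 by strand against 15775 without for mt-Nd5 and 6336 against 4121 for mt-Nd6. The excess was nearly equal, 2222 for mt-Nd5 and 2215 for mt-Nd6, and a read touching both genes counts for each. As a ratio of the 2 counts the excess was 1.54 for mt-Nd6 and 1.14 for mt-Nd5.

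Counted mitochondrial reads took 1.01% and 1.11% of the reads assigned to genes in the replicates labelled Themis1-deleted and 0.840% and 0.960% in Vav1R63W. Both libraries labelled Themis1-deleted thus lay above both Vav1R63W libraries. These sums hold only reads with a single place in the genome, so they need not be the whole mitochondrial share. Reads with several places took 8.94% and 8.24% of all reads for the Themis1-deleted label and 7.86% and 7.39% for Vav1R63W. How many of those were mitochondrial was not tested. In CPM, all 37 genes summed to 10616 ± 731 in the replicates labelled Themis1-deleted and 9000 ± 849 in Vav1R63W (SD, n = 2 each), a difference of 0.24 in mean log2 CPM. An exact permutation test over libraries, two-sided, gave p = 0.333, the smallest it can give with 2 libraries against 2, so the design cannot reach significance here. The mRNAs summed to 4220 and 4501 CPM in the replicates labelled Themis1-deleted and 3414 and 3591 CPM in Vav1R63W, a log2 difference of 0.32 without overlap (exact permutation p = 0.333, n = 2 each). The rRNAs overlapped, at 5869 and 6626 CPM in the replicates labelled Themis1-deleted and 4982 and 6001 CPM in Vav1R63W (log2 difference 0.19, exact permutation p = 0.667, n = 2 each). The tRNAs also overlapped (10.3 and 6.16 CPM against 3.78 and 8.27 CPM). Leaving out replicate 2 labelled Themis1-deleted gave a log2 difference of 0.31 for all 37 genes, 0.36 for the mRNAs, 0.28 for the rRNAs and 0.14 for the tRNAs. Leaving out Vav1R63W replicate 2 brought the difference of all 37 genes to 0.14, that of the rRNAs to 0.055 and that of the tRNAs to -0.050. In bulk samples, fewer mitochondria or cells of a type and less RNA per cell cannot be told apart.

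By respiratory complex, the mRNAs of complex I summed to 2248 and 2620 CPM in the replicates labelled Themis1-deleted and 1908 and 1738 CPM in Vav1R63W. The single complex III mRNA, mt-Cytb, was at 1048 and 994 CPM in the replicates labelled Themis1-deleted and 927 and 982 CPM in Vav1R63W. Complex IV mRNAs, of which nearly all reads were of mt-Co1, summed to 923 and 886 CPM in the replicates labelled Themis1-deleted and 577 and 870 CPM in Vav1R63W. The groups did not overlap for these 3 complexes, though by little for complexes III and IV. Of all tested genes, 15.1% were likewise higher without overlap for the Themis1-deleted label and 18.7% lower. The ATP synthase mRNAs held 1.13 and 1.58 CPM in the replicates labelled Themis1-deleted and 2.29 and 1.32 CPM in Vav1R63W, and both lie wholly in the copied stretch. So do mt-Co2 and mt-Co3 of complex IV and mt-Nd3 and mt-Nd4l of complex I. As mt-Co1 and mt-Nd4 lie there in part, the sums of complexes I and IV may also leave out reads.

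The gene by gene comparison was fitted across all genes with edgeR's quasi-likelihood test. It could test 14 members, 10 mRNA, 2 rRNA and 2 tRNA genes, and the other 23 had at most 8 reads in all, with 14 of them at 0. Each tested member had at least 14 reads in every library. None of the 14 was called at an adjusted p under 0.05, and the same test called 0% of 10216 genes. At an unadjusted p under 0.05 it held 2 members, mt-Nd4 and mt-Nd2, beside 4.98% of all genes tested. The log2 fold change was positive for 12 of the 14 and negative for mt-Atp6 and mt-Nd3, with a median of 0.38 over the 14, beside a median of 0.00 over all tested genes (0.0019). Both libraries labelled Themis1-deleted lay above both Vav1R63W libraries for 10 of the 14, where 15.1% of all tested genes, and 17.3% of those at a mean of at least 100 CPM, were so ordered. The members are cut from shared transcripts and share each library's total, so they are not independent and their count is no test.

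Of the complex I subunits, mt-Nd4, part of the proton-pumping membrane arm, was at 249 and 226 CPM in the replicates labelled Themis1-deleted and at 165 and 149 CPM in Vav1R63W. Its groups did not overlap, with a log2 fold change of 0.62 ± 0.19 (SE) and an adjusted p of 0.900 by edgeR. In the authors' deposited table mt-Nd4 had a log2 fold change of 0.593 and an adjusted p of 0.0356, which is under the false discovery rate of 0.05 that the study used, beside calls for 1.56% of the 7865 genes with an adjusted p there and calls in this direction for 0.737%. It was the sole member called in that table, whereas DESeq2 run here, which called 1.88% of 10972 genes and 0.775% as higher, gave mt-Nd4 an adjusted p of 0.492. All 4 libraries are the same in both, so these are not independent results. The deposited log2 values are also not the same measure as those fitted here. For mt-Co3, with few reads, the deposited value was 0.291, against 1.31 in DESeq2 run here. The fold change of mt-Nd4 lay between 0.57 and 0.67 under the 14 alternatives run, and was 0.57 without replicate 2 labelled Themis1-deleted.

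A neighbouring subunit of the same arm, mt-Nd2, was at 677 and 782 CPM in the replicates labelled Themis1-deleted and at 551 and 521 CPM in Vav1R63W. It did not overlap between groups either, with a log2 fold change of 0.47 ± 0.15 (SE) and an adjusted p of 0.900 by edgeR, against an adjusted p of 0.0551 in the authors' deposited table. For mt-Nd1 the values were 896 and 1214 CPM in the replicates labelled Themis1-deleted and 841 and 752 CPM in Vav1R63W (log2 0.44 ± 0.20). The library labelled Themis1-deleted, replicate 3, stood highest, and without it the log2 fold change of mt-Nd1 was 0.17. The subunit mt-Nd5 was at 321 and 279 CPM in the replicates labelled Themis1-deleted and 234 and 242 CPM in Vav1R63W (log2 0.36 ± 0.17). The minus-strand gene mt-Nd6 was at 76.4 and 82.4 CPM in the replicates labelled Themis1-deleted and 75.1 and 48.5 CPM in Vav1R63W. Its log2 fold change was 0.39 ± 0.40, with Vav1R63W replicate 3 low and the others close. As the kit does not mark strand, its reads cannot be told from plus-strand RNA over the same bases. For mt-Nd6 the log2 fold change was 0.13 without Vav1R63W replicate 3 and 0.71 without Vav1R63W replicate 2. The subunit mt-Nd3 overlapped fully, at 28.6 and 36.6 CPM in the replicates labelled Themis1-deleted and 42.1 and 25.8 CPM in Vav1R63W (log2 -0.025 ± 0.65). None of these passed the test. Leaving out replicate 2 labelled Themis1-deleted gave log2 fold changes of 0.59 for mt-Nd2, 0.65 for mt-Nd1, 0.28 for mt-Nd5, 0.46 for mt-Nd6 and 0.16 for mt-Nd3.

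**Figure D4:**
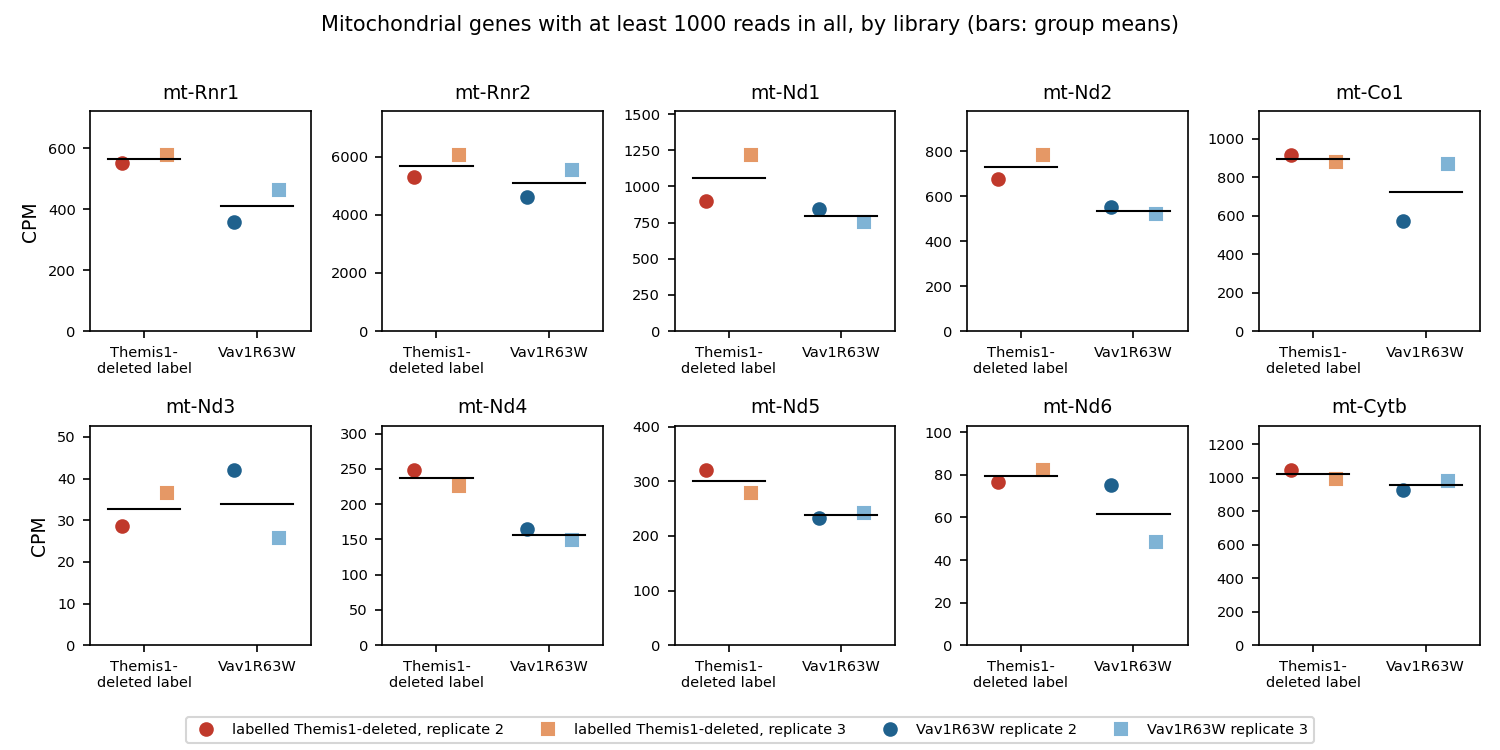
CPM of the 10 mitochondrial genes with at least 1000 reads in all, each panel with its own axis from 0. Points are libraries, those labelled Themis1-deleted on the left and Vav1R63W on the right, and bars are group means. The groups stand apart for mt-Nd4 and mt-Nd2 and overlap for mt-Nd3 and mt-Rnr2.

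Outside complex I, mt-Cytb had the narrowest spread of the mRNAs, with a log2 fold change of 0.12 ± 0.11, which was 0.052 without Vav1R63W replicate 2 and 0.19 without Vav1R63W replicate 3. For mt-Co1, at 914 and 882 CPM in the replicates labelled Themis1-deleted and 574 and 868 CPM in Vav1R63W, the log2 fold change was 0.34 ± 0.24. Vav1R63W replicate 2 was low for this gene, and without it the log2 fold change of mt-Co1 was 0.046, against 0.69 without Vav1R63W replicate 3. The per-length ratio of mt-Cytb to mt-Nd5, which does not depend on library totals, was 5.20 and 5.67 in the replicates labelled Themis1-deleted and 6.33 and 6.48 in Vav1R63W. These groups did not overlap, which with 2 libraries against 2 cannot reach significance. Of the rRNAs, mt-Rnr1 was at 551 and 576 CPM in the replicates labelled Themis1-deleted and 357 and 462 CPM in Vav1R63W (log2 0.48 ± 0.19), and mt-Rnr2 at 5318 and 6049 CPM in the replicates labelled Themis1-deleted and 4625 and 5539 CPM in Vav1R63W (log2 0.19 ± 0.15). Without Vav1R63W replicate 2 these log2 fold changes were 0.28 for mt-Rnr1 and 0.036 for mt-Rnr2, and without the Themis1-deleted label's replicate 3 that of mt-Rnr2 was 0.060. Leaving out replicate 2 labelled Themis1-deleted gave 0.53 for mt-Rnr1, 0.29 for mt-Rnr2, 0.33 for mt-Co1 and 0.10 for mt-Cytb.

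Members with few reads had errors close to or above the size of their fold changes. For mt-Co3 the log2 fold change was 1.31 ± 1.56, for mt-Atp6 -0.39 ± 1.23, for mt-Tq 1.35 ± 1.28 and for mt-Tp 0.12 ± 1.59. Without replicate 2 labelled Themis1-deleted they were 0.74 for mt-Co3, -0.087 for mt-Atp6, 0.84 for mt-Tq and -0.16 for mt-Tp. The fold change of mt-Tp was also negative in either strand column.

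**Figure D5:**
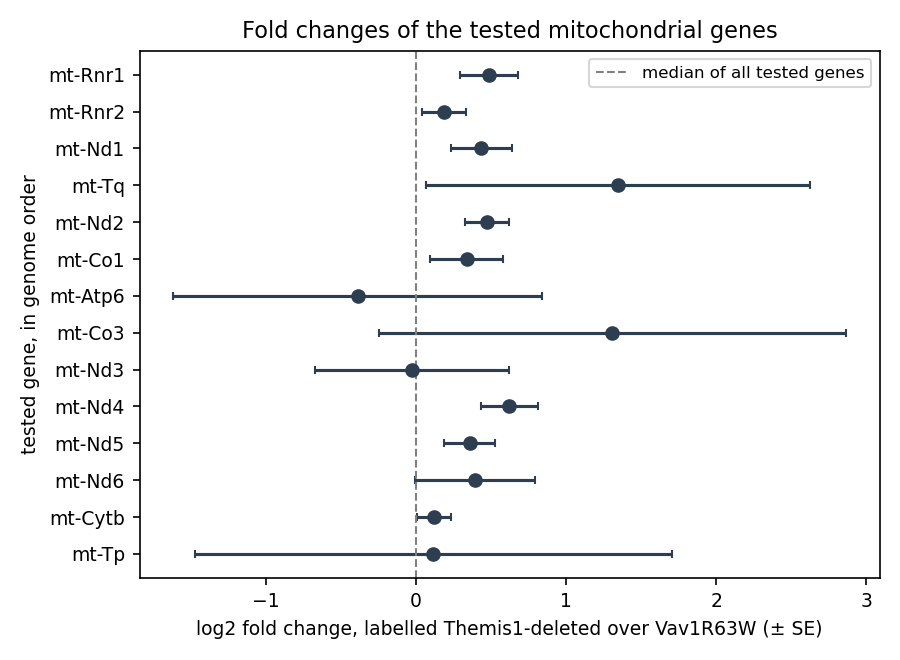
Log2 fold changes of the 14 tested mitochondrial genes, libraries labelled Themis1-deleted over Vav1R63W, with their standard errors, in genome order. The dashed line is the median of all tested genes. Points of 12 genes lie right of it, and none passed the edgeR test after adjustment.

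The nuclear genes that make and use these RNAs were read from 7 lists, 95 genes in all, of which 93 were matched and 88 tested. None was called in either direction, 38 had a positive and 50 a negative log2 fold change, and 1 had an unadjusted p under 0.05. Both libraries labelled Themis1-deleted lay above both Vav1R63W libraries for 9 and below for 22 of the 88, beside 15.1% and 18.7% of all tested genes. Transcription genes numbered 8 tested, 4 positive and 4 negative, with a median of -0.022. Tfam, which packages mitochondrial DNA and starts its transcription, was at 101 and 76.6 CPM in the replicates labelled Themis1-deleted and 151 and 104 CPM in Vav1R63W (log2 -0.50 ± 0.33). Polrmt, the mitochondrial RNA polymerase, had 458 and 310 reads in the replicates labelled Themis1-deleted and 152 and 7 in Vav1R63W.

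RNA processing and polyadenylation genes had a median log2 fold change of -0.39 over 9 tested, 7 of them negative. Ptcd1, a pentatricopeptide protein of mitochondrial RNA processing, had 26 and 30 reads in the replicates labelled Themis1-deleted and 524 and 192 in Vav1R63W (log2 -3.70 ± 1.40). Trnt1, which adds CCA to tRNAs, was at 56.0 and 56.4 CPM in the replicates labelled Themis1-deleted and 77.8 and 93.7 CPM in Vav1R63W. Stability and decay genes had a median of 0.28 over 11 tested, with Fastkd3 at 14.2 and 3.29 CPM in the replicates labelled Themis1-deleted and 25.3 and 26.9 CPM in Vav1R63W. Lrpprc, which binds and stabilises mitochondrial mRNAs, was at 81.2 and 41.0 CPM in the replicates labelled Themis1-deleted and 30.4 and 54.1 CPM in Vav1R63W, which overlap.

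Genes that modify tRNA and rRNA had a median of -0.63 over 16 tested. Cdk5rap1, a tRNA-modifying enzyme, was at 46.9 and 15.8 CPM in the replicates labelled Themis1-deleted and 105 and 70.8 CPM in Vav1R63W, and Nsun4, an rRNA methyltransferase, at 42.9 and 70.6 CPM against 39.5 and 19.7 CPM. The aminoacyl-tRNA synthetase list had a median of -0.012 over 19 tested. Its member with an unadjusted p under 0.05 was Qrsl1, a subunit of the enzyme that makes charged glutamine tRNA, with 0 and 0 reads in the replicates labelled Themis1-deleted and 78 and 15 in Vav1R63W. Tars2, for threonine, was at 83.4 and 42.2 CPM in the replicates labelled Themis1-deleted and 101 and 121 CPM in Vav1R63W. Translation factors had a median of -0.42 over 12 tested, 10 of them negative. Mrrf, the ribosome recycling factor, had 208 and 151 reads in the replicates labelled Themis1-deleted and 418 and 684 in Vav1R63W, and Mtif3, an initiation factor, at 4.70 and 18.7 CPM against 42.2 and 21.3 CPM. Replication and maintenance genes had a median of 0.46 over 13 tested, 9 of them positive. Twnk, the mitochondrial DNA helicase, was at 9.72 and 92.2 CPM in the replicates labelled Themis1-deleted and 10.4 and 16.9 CPM in Vav1R63W, with 1 library far above the other 3. Tk2, the mitochondrial thymidine kinase, was at 31.8 and 57.1 CPM in the replicates labelled Themis1-deleted and 90.3 and 78.7 CPM in Vav1R63W. No gene named here passed the edgeR test, and their smallest adjusted p was 0.900.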

How the data were processed

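The submitters' processing notes name STAR for alignment after Trim Galore and FastQC, with no versions given in the sources used here. The series' design text names Ensembl release 90 and the processing notes name mm9, which are different builds. Raw read counts per gene were deposited by the authors in 3 columns per library, without strand and for each strand, and the unstranded one equals the series table's counts for all 52636 genes. The 4 summary lines of each file held 21.1% to 23.1% of reads and were left out. The authors' deposited table also holds p-values, log2 values and a linear fold, from DESeq2 per the series' design text and per the file headers.

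Levels are CPM of the total of gene reads, with SD over 2 libraries. The comparison used edgeR 4.0.16 in R 4.3.3 (TMM, filterByExpr with minimum count 10 and total 15, robust quasi-likelihood F test, two-sided, no block), with Benjamini-Hochberg adjustment over all genes tested, a threshold of 0.05 and standard errors from the fold change and F. The fit was tested on simulated data with fold changes larger than those of the tested members, which does not show its power at their size. Class sums were compared by exact permutation. Symbols, coordinates and sequences are of GENCODE M21 (GRCm38), matched by gene ID for 52403 IDs. Copies were found with BLAST 2.17.0 at 90% identity or more. Alternatives were DESeq2 1.42.0, limma-voom (limma 3.58.1), other scalings, filters and count columns, a replicate block and each library left out.

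The named genes are all 37 members, Themis and Foxp3, the 2 smallest p of each nuclear list where none passed, and the pseudogene list. Gm10222, Gm11410, Gm13339, Gm13340, Gm13341 and the marker genes named were chosen after their values were seen. The members and lists were chosen with earlier results of these data known. A further list, 5 RNA quality genes, was led by Malat1 at 634 and 485 CPM in the replicates labelled Themis1-deleted and 468 and 499 CPM in Vav1R63W.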

Additional observations from a re-analysis of the deposited data

Results flagged for a closer look

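The share of all reads that had several places in the genome was 8.94% and 8.24% for the Themis1-deleted label and 7.86% and 7.39% in the Vav1R63W libraries. It stood out because it lies outside the gene counts and is above the Vav1R63W level in both libraries labelled Themis1-deleted. How many of these reads are of mitochondrial genes with nuclear copies was not tested.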

How the results depend on the processing

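No mitochondrial gene was called under any of the 14 alternatives of the gene by gene fit. The number of genes called among all genes was 206 with DESeq2 against 0 with edgeR, limma-voom and the other 12 alternatives, and with each library left out in turn it was 0 to 0. At an unadjusted p under 0.05, edgeR held 509 genes and limma-voom 483. The fold change of mt-Nd3 turned positive when replicate 2 of either group was left out, at 0.16 for the Themis1-deleted label and 0.34 for Vav1R63W, and ran from -0.32 to 0.34 over the 4 libraries left out. That of mt-Tp turned negative in the first strand column (-0.23), the second (-0.014) and their sum (-0.12, added after seeing the data), and likewise without replicate 2 (-0.16 for the Themis1-deleted label, -0.48 for Vav1R63W), and ran from -0.48 to 1.12 with a library left out. The other 12 tested members kept their sign where fitted, and mt-Atp6 could not be fitted in 1 alternative. With a library left out, the log2 difference of class sums ran from 0.14 to 0.34 for all 37 genes, 0.27 to 0.36 for mRNAs, 0.055 to 0.32 for rRNAs and -0.050 to 1.08 for tRNAs, which changed sign without Vav1R63W replicate 2. The tRNA difference was 0.51, and 0.030 and 0.13 in the strand columns. The mRNA difference without members of the chromosome 1 stretch, added after seeing the data, was 0.30. The cause of these changes was not tested. Same-numbered libraries deviated from their group means with a correlation of 0.0181 over genes. This single value cannot tell whether the replicate numbers pair the samples. With the replicate number as a block, 0 genes were called, 163 had an unadjusted p under 0.05, and the class sums, whose group means a block cannot move here, were 0.24 for all 37 genes by construction. Depth limits members under 3 reads per library.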

Other observations

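The nuclear copies on chromosome 1 did not share the even strand split of the mitochondrial genes. Of the 5 copies on chromosome 1 with at least 20 reads in all, each had fewer reads in the first strand column. These ran from 16 against 101 in the second for Gm28661 (13.7%) to 255 against 434 for Gm10925. That share was 49.0% to 51.7% for the 10 members with at least 1000 reads. For Gm28437, the copy of mt-Co3, the first column held 137 and 59 reads for the Themis1-deleted label and 78 and 44 for Vav1R63W. The second column held 313 and 382 for the Themis1-deleted label and 276 and 382 for Vav1R63W. On the other side, mt-Atp6 had 60 first-column and 27 second-column reads over the 4 libraries, and mt-Co3 had 154 and 119. The skew was not particular to chromosome 1. On chromosome 2, with few reads, Gm13341 had 5 first-column against 15 second-column reads, Gm13340 4 against 13 and Gm13339 2 against 8. The kit does not mark strand, and the source of this skew was not tested.

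The 2 pseudogene copies shown from other chromosomes had few reads. Gm13340, which matches mt-Co1 over 1545 bases at 97.6% identity, had 6 and 7 reads in the replicates labelled Themis1-deleted and 2 and 2 in Vav1R63W. Gm11410, which matches mt-Cytb at 92.9% identity, had 0 and 1 reads in the replicates labelled Themis1-deleted and 1 and 0 in Vav1R63W.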
